A study of Mus musculus with 8 samples.

Results

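Accessible chromatin was followed here at 36 genes of the sarcomere, the contractile unit of heart and striated muscle, and of cardiac calcium handling and excitation. They code for the thin filament (Actc1, Tnnt2, Tnni1, Tnni3, Tnnc1, Tpm1), the thick filament (Myh6, Myh7, Myl2, Myl3, Myl4, Myl7, Mybpc3), the Z disc, M band and titin (Ttn, Actn2, Ldb3, Des, Myom1, Myom2, Nexn, Xirp1, Csrp3, Tcap), muscle regulators (Smyd1, Popdc2, Hopx), calcium cycling (Ryr2, Casq2, Pln, Atp2a2, Cacna1c, Slc8a1), pacemaker and potassium channels (Hcn4, Kcnq1) and natriuretic peptides (Nppa, Nppb). A region of the deposited accessibility table was taken when its midpoint lay inside one of these genes or within 100 kb of it with no other protein-coding gene span nearer. This gave 411 of 168842 regions, from 1 at Pln to 68 at Cacna1c, and 353 of them lay within 10 kb of the gene. Another 46 regions had one of these genes as the nearest but lay beyond 100 kb and were left out. At that limit, the last Slc8a1 region inside, 98.3 kb from the gene, had 18.4 and 17.96 normalized reads in WT DP cells, 25.4 and 28.8 in WT SP cells, 24.4 and 17.8 in KO DP cells and 19.7 and 30.2 in OE SP cells. The first Slc8a1 region outside, at 103 kb, had 15.5 and 9.88, 15.3 and 19.8, 26.03 and 28.5, and 6.57 and 10.5 in the same order. The nearest gene is a label of position, and which gene a region acts on was not measured.

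The cells came from day 4 mouse embryoid bodies, which form when embryonic stem cells differentiate in suspended clumps. They were sorted on the receptors FLK1 and PDGFRalpha and assayed by ATAC-seq, in which the Tn5 transposase cuts and tags open DNA. There were 4 groups of 2 libraries, all of FLK1+ cells. WT DP (PDGFRalpha+FLK1+) and WT SP (PDGFRalpha-FLK1+) came from the A2lox.Cre stem cell line, for which the labels name no change to Etv2. KO DP was PDGFRalpha+FLK1+ cells from a line lacking Etv2 (Etv2KO), and OE SP was PDGFRalpha-FLK1+ cells of the iETV2 line, given 2 µg/ml doxycycline from day 2.5 to switch on Etv2. Genotype, doxycycline and stem cell line change together, so that their parts in the KO DP and OE SP comparisons cannot be told apart. The labels do not say whether a line is 1 clone, or whether both libraries of each group had their own culture. If they did not, the spread behind the p-values is technical, since these measure only how the samples at hand vary.

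In heart muscle, calcium enters through the L-type channel coded by Cacna1c and opens the ryanodine receptor coded by Ryr2. The released calcium binds troponin C on the thin filament, which moves tropomyosin and lets myosin heads pull on actin. The pump coded by Atp2a2 and the exchanger coded by Slc8a1 then clear the calcium. The genes are switched on as cardiac mesoderm becomes heart muscle, under factors such as GATA4, NKX2-5, TBX5, MEF2 and serum response factor, which binds the CArG box. Etv2 is an ETS factor that is needed for the endothelial and blood fates of FLK1+ mesoderm.

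Each library held 12477601 to 18853733 reads in regions. The main Etv2 region (chr7:30634628-30635028) held 563 and 611 normalized reads in WT DP cells, 475 and 493 in WT SP cells, 0.840 and 0 in KO DP cells, and 425 and 645 in OE SP cells, so that both KO DP libraries had almost no reads there. At the Pdgfra start the sorted groups overlapped, with 142 and 167 normalized reads in WT DP cells, 163 and 149.7 in WT SP cells, 139 and 127 in KO DP cells, and 86.1 and 124 in OE SP cells. The OE SP libraries stood apart from each other: the chi-square per degree of freedom between them was 4.32, against 1.15 to 1.22 within the other groups. Values in OE SP are therefore given by library, and the counts by role also without each of them.

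The promoters of 6 genes on which the start-site results below turn are shown here, from 250 bases before to 50 bases after the start (RefSeq, build GRCm38.p6). They are 5 whose start-site regions fell in OE SP and, for contrast, Myl4, the start with the highest level among these genes. The 6 were picked and do not stand for all the starts. Capitals mark matches on either strand to 5 motifs. TEAD factors were searched as GGAATG. The E-box was searched as CAGCTG, and also as the letters CATCTG. For GATA factors the letters were AGATAA. For ETS factors they were CCGGAA, and also AGGAAG. The CArG box was the last.
Tnnt2, chr1:135836084-135836383, plus strand: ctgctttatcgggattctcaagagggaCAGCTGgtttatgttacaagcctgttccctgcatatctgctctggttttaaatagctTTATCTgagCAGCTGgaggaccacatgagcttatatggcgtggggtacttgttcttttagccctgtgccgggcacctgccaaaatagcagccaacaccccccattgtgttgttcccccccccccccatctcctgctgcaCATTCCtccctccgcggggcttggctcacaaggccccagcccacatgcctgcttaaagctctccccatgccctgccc
Tnnc1, chr14:31208062-31208361, plus strand: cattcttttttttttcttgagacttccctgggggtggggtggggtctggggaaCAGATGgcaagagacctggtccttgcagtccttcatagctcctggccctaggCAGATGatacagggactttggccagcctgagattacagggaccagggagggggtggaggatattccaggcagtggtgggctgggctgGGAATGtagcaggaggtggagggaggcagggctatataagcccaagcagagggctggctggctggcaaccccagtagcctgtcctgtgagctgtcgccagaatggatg
Actc1, chr2:114052826-114053125, minus strand: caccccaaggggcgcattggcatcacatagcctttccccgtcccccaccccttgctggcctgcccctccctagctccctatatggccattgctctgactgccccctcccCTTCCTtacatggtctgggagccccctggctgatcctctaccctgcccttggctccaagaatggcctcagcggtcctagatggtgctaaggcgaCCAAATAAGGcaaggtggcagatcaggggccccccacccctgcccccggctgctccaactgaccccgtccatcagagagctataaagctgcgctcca
Myl7, chr11:5898733-5899032, minus strand: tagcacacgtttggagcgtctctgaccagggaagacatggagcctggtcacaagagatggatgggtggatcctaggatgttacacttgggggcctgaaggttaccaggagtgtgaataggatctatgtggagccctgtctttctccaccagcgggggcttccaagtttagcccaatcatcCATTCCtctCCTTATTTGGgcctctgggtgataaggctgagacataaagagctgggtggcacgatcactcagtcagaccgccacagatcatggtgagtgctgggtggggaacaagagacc
Popdc2, chr16:38361940-38362239, plus strand: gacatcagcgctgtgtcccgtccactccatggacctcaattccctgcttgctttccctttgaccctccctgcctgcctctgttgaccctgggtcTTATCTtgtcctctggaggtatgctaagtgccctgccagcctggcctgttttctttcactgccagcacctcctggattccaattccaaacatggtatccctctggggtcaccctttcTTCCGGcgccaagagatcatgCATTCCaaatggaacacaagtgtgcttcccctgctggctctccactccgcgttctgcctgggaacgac
Myl4, chr11:104550413-104550712, plus strand: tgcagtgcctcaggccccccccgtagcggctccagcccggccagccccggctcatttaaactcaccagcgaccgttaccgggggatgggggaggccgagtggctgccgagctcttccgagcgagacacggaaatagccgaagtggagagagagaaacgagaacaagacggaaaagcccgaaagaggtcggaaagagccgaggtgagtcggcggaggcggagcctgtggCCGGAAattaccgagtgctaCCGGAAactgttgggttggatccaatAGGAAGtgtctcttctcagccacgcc

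A CArG box stood 47 bases before the Actc1 start and 61 bases before the Myl7 start, counted to the first base of the match. A TEAD match began at position -27 of the Tnnt2, -58 of the Tnnc1, -70 of the Myl7 and -18 of the Popdc2 promoter. The Myl4 promoter held the ETS letters CCGGAA at -22 and -2 and AGGAAG at 25, and no match to the muscle motifs searched. ETS letters also stood in 2 of the promoters whose regions fell, at -39 of Popdc2 and -141 of Actc1. Among starts not printed, those of Ryr2 and Myom1 were called lower in OE SP too. They held AGGAAG on either strand, at -112 of Ryr2 and at -171 and -107 of Myom1. The Nppb promoter and the Hopx promoter at 77095267, starts not called in OE SP, held no ETS letters. Nppb held GATA, E-box and TEAD letters. Whether motifs differ between starts that fell and others was not tested. The promoter table held 39 promoters of 30 of these genes. A CArG box occurred in 7 of the 39 (17.9%; Actc1, Hopx, Myl3, Myl7, Myom1 and 2 overlapping promoters of Ldb3), against 1.63% of all 32851 promoters of that length. The TEAD letters occurred in 25.6% against 14.7%, and the E-box letters CAGCTG in 30.8% against 16.3%. The ETS letters AGGAAG occurred in 15.4% against 35.4% and CCGGAA in 7.69% against 14.9%. Both forms of the MEF2 motif searched occurred in 0 of the 39, and in 0.11% and 0.164% of all promoters. The AGATAA letters were in 17.9% against 11.2%, CATCTG in 10.3% against 17.2%, the T-box letters AGGTGTGA in 5.13% against 1.28%, and the NKX2-5 letters TCAAGTG and TTAAGTG each in 2.56%, against 3.06% and 2.41%. The AGGAAG match and the CArG box of the Hopx promoter overlap. The median GC content was 55.7% in the 39 and 52.7% in all promoters. These matches describe letters in a window and were not tested as binding sites.

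With Etv2 induced, regions of these genes more often lost than gained accessibility. Against WT SP, 205 of the 410 regions tested (50.0%) fell in OE SP and 48 (11.7%) rose, while over all 167573 regions tested 31.9% fell and 16.6% rose. A region was called when limma's adjusted p on log2(value + 5) was below 0.05, and log2 changes below are on that scale, which understates changes of low regions. The median log2 change was -0.61 in these regions and -0.22 in all. Fewer regions were called between the wild-type sorts in this fit. In WT SP against WT DP, 37 regions rose (9.02%) and 25 fell (6.1%), against 6.20% and 8.12% of all regions. The medians were 0.12 and 0.11. In KO DP against WT DP, 10 rose (2.44%) and 12 fell (2.93%), against 1.72% and 2.21% of all regions, with medians of -0.05 and -0.07. In the latter 2 comparisons these genes' shares were thus near the background. The comparisons share WT DP or WT SP libraries and are not independent. In bulk samples, fewer cells with an open region and a less open region in each cell cannot be told apart.

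**Figure D1:**
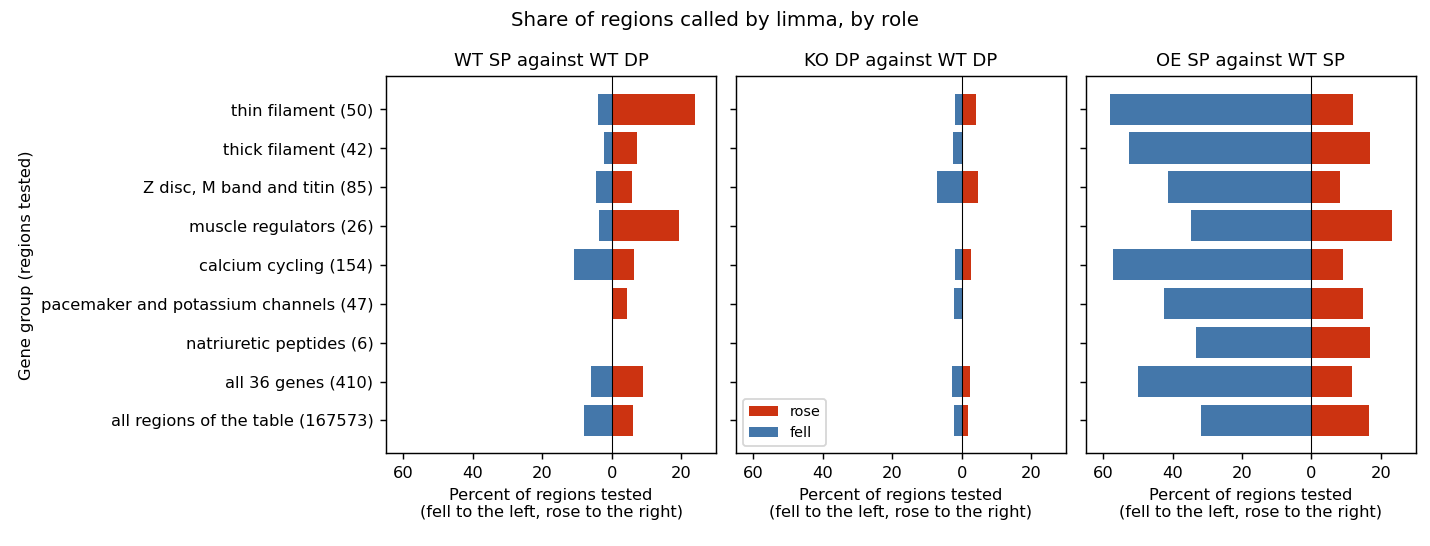
Percent of regions that fell (left, blue) or rose (right, red) by limma in each comparison, for the gene groups by role, for all 36 genes and for the whole table; numbers of regions tested are in brackets. In OE SP against WT SP the bars to the left reach 58.0% for the thin filament and 57.1% for calcium cycling, beside 31.9% for the whole table.

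Leaving out 1 library kept the excess of falls in OE SP, with 153 to 227 regions falling and 35 to 59 rising. By role, without OE SP replicate 1 or 2 respectively, 29 and 33 thin filament regions fell, as did 21 and 25 of the thick filament, 34 and 39 of the Z disc, M band and titin, 10 and 12 of the muscle regulators, 83 and 93 of calcium cycling and 18 and 23 of the channels. With DESeq2 on recovered reads, 119 fell and 46 rose (29.0% and 11.2%, beside 17.2% and 16.3% of all). Without OE SP replicate 1, 48.0% of the regions fell, beside 32.2% of all. When values were rescaled on the 10000 highest regions, the split moved to 163 falls and 74 rises (39.8% fell, beside 23.1% of all), and the medians to -0.33 and 0.06. In WT SP the balance depends on the scaling: 36 rose and 39 fell with median-of-ratios scaling, and 25 rose and 51 fell with the 10000 highest regions. With median-of-ratios scaling these are 8.78% and 9.51%, beside 5.58% and 9.83% of all regions. With the 10000 highest regions they are 6.1% and 12.4%, beside 4.16% and 11.9%. Without any 1 of the 4 libraries compared, fewer regions were called in WT SP, at these genes and over the whole table alike. The median log2 change was then 0.12 to 0.14 at these genes and 0.09 to 0.11 in all regions. In KO DP the split was 17 rises and 11 falls with median-of-ratios scaling, 23 and 11 with the 10000 highest regions, and 24 and 16 with quantile normalization. In that order the rises were 4.15%, 5.61% and 5.85%, beside 2.57%, 3.19% and 3.54% of all regions. The falls in KO DP were 2.68%, 2.68% and 3.9%, beside 2.3%, 2.21% and 3.44%. Leaving out any 1 of its 4 libraries lowered the KO DP calls too, at these genes and over the whole table alike. The medians were then -0.06 to -0.03 at these genes and -0.1 to -0.03 in all regions. With each library left out in turn, 135 of the 205 falls and 30 of the 48 rises in OE SP were called every time, as were 5 of 37 rises and 5 of 25 falls in WT SP and 1 of 10 rises and 1 of 12 falls in KO DP.

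Falls in OE SP were spread over most of the genes. Of the 36 genes, 13 had falls and no rise, 20 had both, 2 (Mybpc3 and Tcap) had a rise and no fall, and Pln had neither. Falls outnumbered rises at 30 genes, and at 24 to 31 under the alternatives run, with 24 when rescaled on the 10000 highest regions. The genes with falls and no rise numbered 21 with a mean of at least 30, which leaves fewer regions, and 12 or 16 without OE SP replicate 1 or 2. Falls also outnumbered rises over the whole table, where 31.9% of regions fell and 16.6% rose. The same tally was not made over all genes, so these gene counts have no background beside them. In 25 of the 36, the median change of the gene's own regions lay below that of the other regions within 1 Mb that belong to none of these genes. The gene medians ran from -1.73 at Tnnc1, beside -0.25 in its neighbourhood, to 1.31 at Mybpc3, which has 2 regions, beside -0.15. Ryr2 stood at -1.14 beside -0.14, Myl7 at -1.33 beside -0.19 and Actc1 at -1.26 beside -0.08. The 4 genes with the most regions, Cacna1c, Kcnq1, Ryr2 and Slc8a1, made up 92 of the falls. Without them 113 of 238 regions (47.5%) fell and 30 rose, with a median of -0.45.

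**Figure D2:**
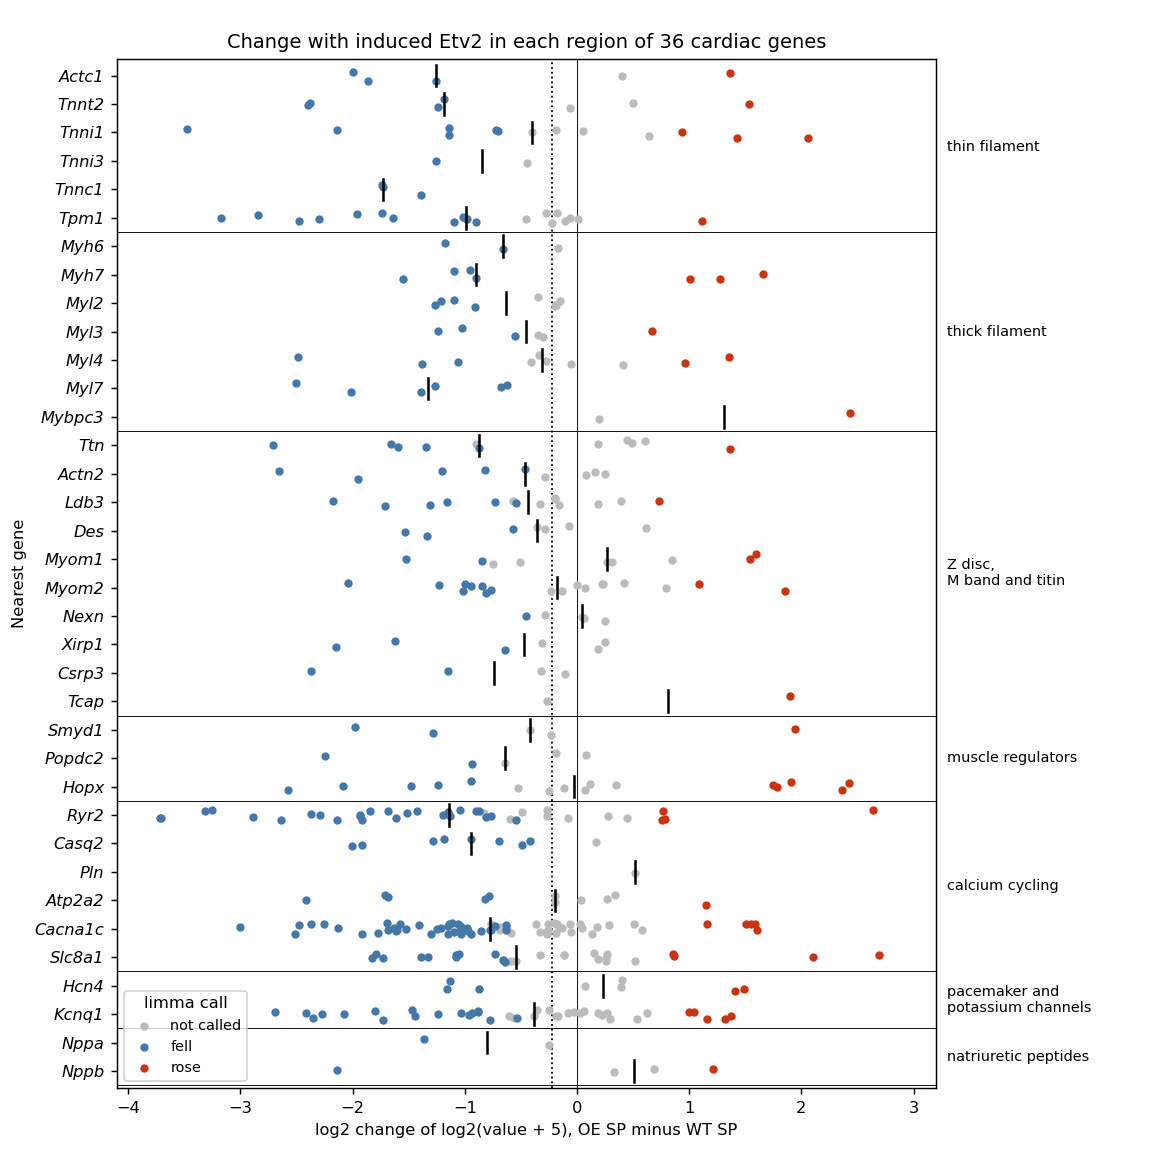
Difference of log2(value + 5) between OE SP and WT SP group means (x axis) in each tested region of each gene (y axis), colored by limma call; short black bars are gene medians and the dotted line is the median of all regions tested, -0.22. Falls extend to -3.71 at Ryr2 and rises to 2.69 at Slc8a1.

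Among thin filament genes, 29 of 50 regions fell in OE SP (58.0%) and 6 rose. In WT SP against WT DP 12 rose (24.0%) and 2 fell (4.0%), beside 6.2% and 8.12% of all regions. The WT SP count rested on the full set of libraries, since 3 or 4 rises remained without any 1 of the 4, and 9 rises stood beside 6 falls when rescaled on the 10000 highest regions. Tpm1 codes for alpha-tropomyosin, the rod that covers the myosin sites on actin, and 8 of its 20 regions rose in WT SP while 12 fell and 1 rose in OE SP. Without any 1 library of the WT SP comparison, 1 or 2 Tpm1 regions rose. Its region 2.2 kb inside the gene (chr9:67046795-67047195) held 123 and 136 normalized reads in WT DP cells, 213 and 233 in WT SP cells, 164 and 183 in KO DP cells and 39.4 and 43.4 in OE SP cells. The WT SP libraries were the highest and the OE SP libraries the lowest, with no overlap between groups. The rise in WT SP passed (log2 change 0.76 ± 0.17 (SE), adjusted p = 0.0139) but was lost without any 1 of its libraries. The fall in OE SP passed too (log2 change -2.297 ± 0.17 (SE), adjusted p = 5.12e-06). Its region chr9:67025140-67025540 held 30.1 and 35.9 normalized reads in WT DP cells, 98.7 and 115 in WT SP cells, 50.4 and 64.2 in KO DP cells and 25.5 and 31.5 in OE SP cells. WT SP exceeded every other library there (log2 change 1.56 ± 0.22 (SE), adjusted p = 0.00119). The region then fell in OE SP (log2 change -1.74 ± 0.22 (SE), adjusted p = 7.42e-05).

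Troponin I slow, coded by Tnni1, is the isoform of the embryonic heart. The Tnni1 region 1.2 kb past the start (chr1:135800476-135800876) was among the most accessible of the whole set, with 850.4 and 824 normalized reads in WT DP cells, 1078 and 1062 in WT SP cells, 969.8 and 834 in KO DP cells and 24.8 and 309 in OE SP cells. Both OE SP libraries lay below the other 6, but they differed widely from each other, and the change had a wide error (log2 change -3.47 ± 0.703 (SE), adjusted p = 0.00156). Another Tnni1 region, chr1:135783864-135784264, held 5.82 and 2.69 normalized reads in WT DP cells, 21.4 and 25.8 in WT SP cells, 5.88 and 7.13 in KO DP cells and 78.05 and 164 in OE SP cells. It went the other way, rising in WT SP (log2 change 1.64 ± 0.33 (SE), adjusted p = 0.00752). It rose again in OE SP (log2 change 2.06 ± 0.33 (SE), adjusted p = 0.000369). The WT SP call was lost without WT DP replicate 2 or without either WT SP library. One more, chr1:135808662-135809062, held 13.6 and 14.4 normalized reads in WT DP cells, 16.3 and 19.8 in WT SP cells, 47.9 and 64.2 in KO DP cells and 8.75 and 9.20 in OE SP cells. KO DP stood above the other groups there (log2 change 1.67 ± 0.25 (SE), adjusted p = 0.00346), a call lost without either WT DP library or KO DP replicate 2.

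Tnnt2 codes for cardiac troponin T, which anchors the troponin complex to tropomyosin. Its region inside the gene, 4.1 kb past the start (chr1:135840879-135841279) held 314 and 292 normalized reads in WT DP cells, 366 and 411 in WT SP cells, 429.9 and 358 in KO DP cells and 45.2 and 106 in OE SP cells. OE SP was lowest in both libraries (log2 change -2.39 ± 0.28 (SE), adjusted p = 4.77e-05). Tnnc1 codes for troponin C, the calcium sensor, and its region beyond the gene, chr14:31212551-31212951, held 14.6 and 17.96 normalized reads in WT DP cells, 59.03 and 70.4 in WT SP cells, 28.6 and 27.3 in KO DP cells and 23.3 and 19.7 in OE SP cells. The values were lowest in WT DP and highest in WT SP (log2 change 1.71 ± 0.23 (SE), adjusted p = 0.000929). They fell in OE SP (log2 change -1.39 ± 0.23 (SE), adjusted p = 0.000438). Its difference between KO DP and WT DP did not pass (log2 change 0.64 ± 0.23 (SE), adjusted p = 0.155). The region 14.4 kb upstream of Actc1, the cardiac alpha-actin gene (chr2:114067095-114067495), held 416 and 435 normalized reads in WT DP cells, 167 and 189 in WT SP cells, 346 and 317 in KO DP cells and 42.3 and 48.6 in OE SP cells. WT SP was below WT DP (log2 change -1.23 ± 0.17 (SE), adjusted p = 0.000899). OE SP was lower again (log2 change -1.86 ± 0.17 (SE), adjusted p = 9.64e-06). In KO DP the Tpm1 region chr9:67019995-67020395 held 18.4 and 16.2 normalized reads in WT DP cells, 35.6 and 39.6 in WT SP cells, 52.1 and 65.4 in KO DP cells and 25.5 and 55.2 in OE SP cells. Both KO DP libraries were above WT DP (log2 change 1.51 ± 0.298 (SE), adjusted p = 0.0163), and the call was lost without any 1 of these 4 libraries.

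Thick filament genes had 22 falls and 7 rises among 42 regions in OE SP (52.4% fell). In WT SP they had 3 rises (7.14%) and 1 fall (2.38%), beside 6.2% and 8.12% of all regions. In KO DP they had 0 rises and 1 fall (2.38%), beside 1.72% and 2.21% of all regions. With DESeq2, 12 of these regions fell in OE SP and 6 rose. Without WT SP replicate 2, 14 fell, and without WT SP replicate 1, 3 rose. The 3 rises in WT SP were lost without any 1 of its 4 libraries. Myl7, the atrial regulatory light chain, had 6 of 6 regions fall in OE SP. The falls at the regions starting at chr11:5896806 and chr11:5897818 were each lost under 7 of 14 alternatives. These were median-of-ratios or 10000-region scaling, separate fits, edgeR, DESeq2 and leaving out either WT SP library. The Myl7 region 1.8 kb past the start (chr11:5896806-5897206) held 246 and 252 normalized reads in WT DP cells, 52.9 and 57.5 in WT SP cells, 386 and 332 in KO DP cells and 29.2 and 39.4 in OE SP cells. WT SP and OE SP were low and KO DP highest, and the fall in WT SP was the largest in that comparison (log2 change -2.08 ± 0.19 (SE), adjusted p = 0.000195). Its region downstream of the gene, chr11:5887370-5887770, held 34.95 and 27.8 normalized reads in WT DP cells, 52.9 and 69.4 in WT SP cells, 54.6 and 68.9 in KO DP cells and 18.97 and 21.02 in OE SP cells. This one was higher in WT SP (log2 change 0.86 ± 0.23 (SE), adjusted p = 0.0304; lost without any 1 of its libraries). It was lower in OE SP (log2 change -1.39 ± 0.23 (SE), adjusted p = 0.000471). The difference of KO DP from WT DP did not pass (log2 change 0.87 ± 0.23 (SE), adjusted p = 0.0614).

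Myl4, the atrial essential light chain that the embryonic heart also uses, had 147 and 128 normalized reads in WT DP cells, 119 and 121 in WT SP cells, 250.2 and 223 in KO DP cells and 12.4 and 23.6 in OE SP cells in a region inside the gene (chr11:104576840-104577240). OE SP lay below the other 6 libraries (log2 change -2.48 ± 0.23 (SE), adjusted p = 1.2e-05). Myh7, the beta myosin heavy chain of the fetal mouse ventricle, had 29.1 and 32.3 normalized reads in WT DP cells, 85.5 and 67.4 in WT SP cells, 47.02 and 82.00 in KO DP cells and 219 and 288 in OE SP cells in a region 8.1 kb upstream (chr14:55002493-55002893). Here OE SP was highest (log2 change 1.66 ± 0.26 (SE), adjusted p = 0.000266). WT SP was above WT DP (log2 change 1.18 ± 0.26 (SE), adjusted p = 0.0105), a call lost without any 1 of those 4 libraries. A region beyond Mybpc3, the gene of myosin binding protein C (chr2:91136645-91137045), held 7.77 and 3.59 normalized reads in WT DP cells, 15.3 and 9.91 in WT SP cells, 10.1 and 9.51 in KO DP cells and 74.4 and 106 in OE SP cells. Both OE SP libraries exceeded the other 6 (log2 change 2.44 ± 0.298 (SE), adjusted p = 5.64e-05). The one fall in KO DP was a region beyond Myl3, the ventricular essential light chain (chr9:110779253-110779653), with 119 and 102 normalized reads in WT DP cells, 88.5 and 99.1 in WT SP cells, 55.4 and 62.99 in KO DP cells and 65.7 and 85.4 in OE SP cells. KO DP lay below every other library, and the call (log2 change -0.84 ± 0.203 (SE), adjusted p = 0.0401) was lost without any 1 of its libraries.

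Genes of the Z disc, M band and titin had 35 falls and 7 rises among 85 regions in OE SP (41.2% fell). The split was 28 falls and 16 rises with median-of-ratios scaling, 23 and 17 with the 10000 highest regions, and 18 and 9 with DESeq2. They had 5 rises (5.88%) and 4 falls (4.71%) in WT SP, beside 6.2% and 8.12% of all regions, and fewer of each without any 1 library. In KO DP they had 4 rises (4.71%) and 6 falls (7.06%), beside 1.72% and 2.21% of all regions. Actn2, the Z-disc alpha-actinin that cross-links actin, had 74.8 and 58.4 normalized reads in WT DP cells, 99.7 and 91.2 in WT SP cells, 107 and 103 in KO DP cells and 8.02 and 14.4 in OE SP cells in a region inside the gene (chr13:12313664-12314064). OE SP was lowest (log2 change -2.66 ± 0.24 (SE), adjusted p = 9.48e-06). In another, chr13:12299340-12299740, the values were 283 and 317 normalized reads in WT DP cells, 115 and 100.1 in WT SP cells, 222 and 187 in KO DP cells and 21.9 and 26.3 in OE SP cells. They stepped down from WT DP to WT SP (log2 change -1.44 ± 0.19 (SE), adjusted p = 0.000769). They stepped down again in OE SP (log2 change -1.95 ± 0.19 (SE), adjusted p = 1.37e-05). A region 1.2 kb upstream of Ttn, the gene of the giant spring protein titin (chr2:76983578-76983978), held 147 and 128 normalized reads in WT DP cells, 92.6 and 107 in WT SP cells, 123 and 146 in KO DP cells and 4.38 and 22.3 in OE SP cells. The OE SP libraries were far below the rest (log2 change -2.71 ± 0.37 (SE), adjusted p = 0.000117). In Xirp1, which codes for an actin-binding protein of cell junctions, the region chr9:120021125-120021525 held 47.6 and 46.7 normalized reads in WT DP cells, 112 and 107 in WT SP cells, 44.5 and 53.5 in KO DP cells and 18.2 and 23.6 in OE SP cells. WT SP was highest (log2 change 1.14 ± 0.21 (SE), adjusted p = 0.0049; lost without either WT DP library or WT SP replicate 1). The OE SP libraries were the lowest (log2 change -2.15 ± 0.21 (SE), adjusted p = 1.58e-05).

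Ldb3, a Z-disc PDZ and LIM protein, and Myom2, an M-band cross-linker of myosin, held most of the KO DP calls of this group. The Ldb3 region chr14:34563925-34564325 held 43.7 and 45.8 normalized reads in WT DP cells, 30.5 and 32.7 in WT SP cells, 8.40 and 7.13 in KO DP cells and 13.9 and 9.20 in OE SP cells. KO DP was lower than both wild-type groups and close to OE SP (log2 change -1.96 ± 0.25 (SE), adjusted p = 0.00118). OE SP fell below WT SP as well (log2 change -1.16 ± 0.25 (SE), adjusted p = 0.00235; lost with DESeq2). Another pair of Ldb3 regions fell in KO DP. The first, chr14:34576378-34576778, held 99.01 and 80.8 normalized reads in WT DP cells, 50.9 and 41.6 in WT SP cells, 36.9 and 21.4 in KO DP cells and 13.9 and 7.88 in OE SP cells. The second, chr14:34564616-34565016, held 49.5 and 51.2 normalized reads in WT DP cells, 38.7 and 35.7 in WT SP cells, 25.2 and 14.3 in KO DP cells and 27.7 and 19.7 in OE SP cells. Neither overlapped WT DP. The change at the first (log2 change -1.51 ± 0.28 (SE), adjusted p = 0.0127) and at the second (log2 change -1.199 ± 0.27 (SE), adjusted p = 0.0289) both passed. The first call was lost without either WT DP library or KO DP replicate 2, and the second without any 1 of the 4 libraries and with DESeq2.

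The Myom2 region chr8:15126711-15127111 held 7.77 and 8.08 normalized reads in WT DP cells, 5.09 and 4.96 in WT SP cells, 62.97 and 79.6 in KO DP cells and 6.57 and 1.31 in OE SP cells. Both KO DP libraries were far above every other library (log2 change 2.55 ± 0.32 (SE), adjusted p = 0.000958). A Myom2 region farther off, chr8:15077077-15077477, held 4.85 and 7.19 normalized reads in WT DP cells, 7.12 and 2.97 in WT SP cells, 46.2 and 30.9 in KO DP cells and 15.3 and 9.20 in OE SP cells. KO DP was again highest (log2 change 1.97 ± 0.33 (SE), adjusted p = 0.00605), though this call was lost without any 1 of the 4 libraries. In WT SP the region chr8:15121883-15122283 held 469.8 and 499 normalized reads in WT DP cells, 157 and 141 in WT SP cells, 422 and 404 in KO DP cells and 86.1 and 42.04 in OE SP cells. The DP groups were high and the SP groups low (log2 change -1.67 ± 0.25 (SE), adjusted p = 0.0015). The region chr8:15173232-15173632 held 52.4 and 72.8 normalized reads in WT DP cells, 16.3 and 17.8 in WT SP cells, 43.7 and 35.6 in KO DP cells and 6.57 and 5.25 in OE SP cells. The order was the same (log2 change -1.599 ± 0.25 (SE), adjusted p = 0.002). At the start of Myom1, the other M-band gene (chr17:71019434-71019834), the values were 185 and 155 normalized reads in WT DP cells, 127 and 112 in WT SP cells, 87.3 and 92.7 in KO DP cells and 53.2 and 77.5 in OE SP cells. In KO DP this was the one start-site fall (log2 change -0.88 ± 0.21 (SE), adjusted p = 0.0393), lost with a pseudocount of 1, with DESeq2 and without any 1 of its libraries.

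The muscle regulators had 9 falls and 6 rises among 26 regions in OE SP (34.6% fell), and with DESeq2 6 fell and 6 rose. They had 5 rises (19.2%) and 1 fall (3.85%) in WT SP, beside 6.2% and 8.12% of all regions. None was called in KO DP, where 1.72% of all regions rose and 2.21% fell. Without any 1 library of the WT SP comparison 1 rise was left, with the fall present on leaving out WT SP replicate 1 and absent otherwise. Hopx, a homeodomain protein that does not bind DNA itself, had 5 rises and 5 falls among its 16 regions in OE SP, with 3 falls by DESeq2. Its region 33.1 kb upstream (chr5:77148054-77148454) held 4.85 and 4.49 normalized reads in WT DP cells, 34.6 and 38.7 in WT SP cells, 2.52 and 3.56 in KO DP cells and 151 and 289 in OE SP cells. The DP groups were almost closed and OE SP was highest, in the largest rise of WT SP (log2 change 2.104 ± 0.297 (SE), adjusted p = 0.00113). It rose again from WT SP to OE SP (log2 change 2.37 ± 0.297 (SE), adjusted p = 6.66e-05). A region 4.5 kb upstream of one of its starts, chr5:77099601-77100001, held 10.7 and 8.98 normalized reads in WT DP cells, 10.2 and 15.9 in WT SP cells, 7.56 and 5.94 in KO DP cells and 80.2 and 103 in OE SP cells. OE SP alone was high (log2 change 2.43 ± 0.27 (SE), adjusted p = 3.08e-05). Another Hopx region, chr5:77130414-77130814, held 243 and 208 normalized reads in WT DP cells, 236 and 282 in WT SP cells, 155 and 156 in KO DP cells and 48.1 and 67.01 in OE SP cells. It fell in OE SP (log2 change -2.09 ± 0.195 (SE), adjusted p = 1.2e-05).

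Smyd1, a muscle histone methyltransferase, showed both directions inside 1 gene. The region chr6:71218244-71218644 held 55.3 and 60.2 normalized reads in WT DP cells, 63.1 and 70.4 in WT SP cells, 52.1 and 54.7 in KO DP cells and 13.1 and 13.1 in OE SP cells. It fell in OE SP (log2 change -1.98 ± 0.21 (SE), adjusted p = 2.16e-05). The region chr6:71238216-71238616 held 10.7 and 7.19 normalized reads in WT DP cells, 8.14 and 9.91 in WT SP cells, 2.52 and 7.13 in KO DP cells and 46.7 and 51.2 in OE SP cells. It rose in OE SP (log2 change 1.95 ± 0.301 (SE), adjusted p = 0.000267). In WT SP the region chr6:71260033-71260433, with 86.4 and 86.2 normalized reads in WT DP cells, 146 and 151 in WT SP cells, 103 and 78.4 in KO DP cells and 99.9 and 156 in OE SP cells, rose narrowly (log2 change 0.75 ± 0.23 (SE), adjusted p = 0.0447). So did the second Popdc2 start region (chr16:38362864-38363264), with 12.6 and 17.96 normalized reads in WT DP cells, 30.5 and 34.7 in WT SP cells, 18.5 and 23.8 in KO DP cells and 35.01 and 34.2 in OE SP cells (log2 change 0.901 ± 0.25 (SE), adjusted p = 0.0307). Both calls were lost without any 1 of the 4 libraries. Inside Popdc2, which codes for a cAMP-binding membrane protein of heart muscle, the region chr16:38376514-38376914 held 34.95 and 48.5 normalized reads in WT DP cells, 39.7 and 37.7 in WT SP cells, 19.3 and 19.02 in KO DP cells and 42.3 and 26.3 in OE SP cells. KO DP was below WT DP without passing (log2 change -0.94 ± 0.26 (SE), adjusted p = 0.0694).

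Calcium cycling genes had 88 falls and 14 rises among 154 regions in OE SP (57.1% fell), with a median of -0.77. Without WT SP replicate 1, 9 rose, and with DESeq2 46 fell and 11 rose. In WT SP against WT DP 10 rose and 17 fell, and 9 rose and 31 fell when rescaled on the 10000 highest regions. Without any 1 library of that comparison 2 to 4 rose and 2 or 3 fell. Ryr2, the calcium release channel of the sarcoplasmic reticulum, had 26 falls and 4 rises among its 38 regions in OE SP, and 4 of the 5 largest falls of the whole set. Without WT SP replicate 1 or 2 or OE SP replicate 2, 1 or 2 Ryr2 regions rose, and with DESeq2 17 fell. The region 69.9 kb inside the gene (chr13:12036810-12037210) held 171 and 179.6 normalized reads in WT DP cells, 419 and 425 in WT SP cells, 280.4 and 330.4 in KO DP cells and 6.57 and 86.7 in OE SP cells. WT SP was highest and OE SP lowest, with a wide gap between the OE SP libraries (log2 change -3.71 ± 0.63 (SE), adjusted p = 0.000485). The neighbour at 76.2 kb (chr13:12030518-12030918) held 263 and 248 normalized reads in WT DP cells, 623 and 619 in WT SP cells, 339 and 335 in KO DP cells and 16.8 and 177 in OE SP cells. The order was the same, and the OE SP libraries were again far apart (log2 change -3.31 ± 0.64 (SE), adjusted p = 0.00115). In both, the WT SP libraries were far above the WT DP libraries, yet the difference did not pass (adjusted p = 0.206 and 0.207), with SEs of 0.63 and 0.64 that the 4 groups share.

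The region 26.8 kb upstream of Ryr2 (chr13:12133498-12133898) held 120.4 and 124 normalized reads in WT DP cells, 292 and 262 in WT SP cells, 163 and 165 in KO DP cells and 8.75 and 28.9 in OE SP cells. It rose in WT SP (log2 change 1.15 ± 0.32 (SE), adjusted p = 0.0315; lost without any 1 of its libraries). It fell in OE SP (log2 change -3.704 ± 0.32 (SE), adjusted p = 7.71e-06). The region 352.5 kb inside (chr13:11754282-11754682) held 179.6 and 175 normalized reads in WT DP cells, 105 and 126 in WT SP cells, 278 and 246 in KO DP cells and 8.75 and 6.57 in OE SP cells. Here the OE SP libraries were alike and far below the other 6 (log2 change -3.25 ± 0.19 (SE), adjusted p = 2.85e-06). The largest rise at Ryr2 was deep in the gene, where chr13:11586008-11586408 held 0.971 and 3.59 normalized reads in WT DP cells, 16.3 and 11.9 in WT SP cells, 7.56 and 7.13 in KO DP cells and 94.1 and 135 in OE SP cells. OE SP was highest (log2 change 2.64 ± 0.29 (SE), adjusted p = 3.08e-05). WT SP was next (log2 change 1.41 ± 0.29 (SE), adjusted p = 0.00838; lost without replicate 1 of either group). The region chr13:11836728-11837128 held 13.6 and 14.4 normalized reads in WT DP cells, 64.1 and 56.5 in WT SP cells, 16.8 and 11.9 in KO DP cells and 90.5 and 124 in OE SP cells, and WT SP was already high (log2 change 1.78 ± 0.24 (SE), adjusted p = 0.000933). OE SP was higher still (log2 change 0.76 ± 0.24 (SE), adjusted p = 0.02; lost without either WT SP library or OE SP replicate 2). In KO DP the region 9.9 kb past the start, chr13:12096884-12097284, held 14.6 and 13.5 normalized reads in WT DP cells, 15.3 and 21.8 in WT SP cells, 46.2 and 43.97 in KO DP cells and 7.29 and 3.94 in OE SP cells. KO DP was highest (log2 change 1.397 ± 0.27 (SE), adjusted p = 0.0148), a call lost without any 1 of the 4 libraries.

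**Figure D3:**
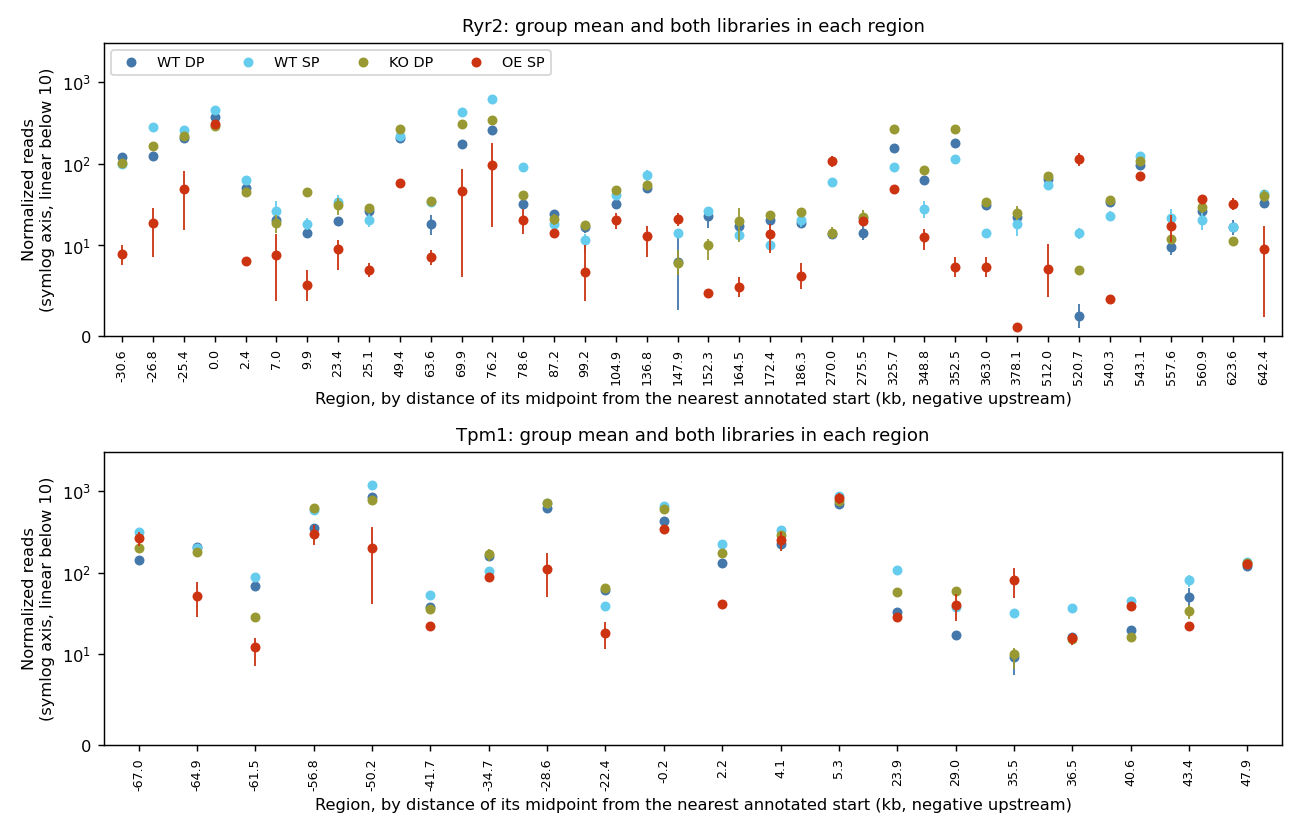
Normalized reads (symlog y axis, linear below 10) in every region of Ryr2 (top) and Tpm1 (bottom), ordered by position relative to the nearest annotated start in kb; points are group means and lines join both libraries. OE SP lies lowest in most Ryr2 regions and highest in a few, such as those at 520.7 kb and 270.0 kb, while the start-site region fell in OE SP by 0.90 on the log2 scale at Tpm1 and by 0.54 at Ryr2.

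Cacna1c, the pore of the L-type calcium channel, had 38 falls and 5 rises among its 68 regions in OE SP, 18 and 5 with DESeq2, and 34 and 8 without OE SP replicate 1. The region chr6:118914601-118915001 held 56.3 and 74.5 normalized reads in WT DP cells, 41.7 and 35.7 in WT SP cells, 68.01 and 66.5 in KO DP cells and 4.38 and 3.94 in OE SP cells. OE SP was lowest in both libraries (log2 change -2.25 ± 0.23 (SE), adjusted p = 1.93e-05). The region chr6:118763914-118764314 held 51.5 and 63.8 normalized reads in WT DP cells, 19.3 and 15.9 in WT SP cells, 69.7 and 42.8 in KO DP cells and 5.11 and 5.25 in OE SP cells. It fell from WT DP to WT SP (log2 change -1.47 ± 0.27 (SE), adjusted p = 0.00447; lost without replicate 2 of either group). The region chr6:119018909-119019309 held 109.7 and 108 normalized reads in WT DP cells, 54.96 and 67.4 in WT SP cells, 46.2 and 46.4 in KO DP cells and 15.3 and 15.8 in OE SP cells. WT SP was lower than WT DP (log2 change -0.79 ± 0.205 (SE), adjusted p = 0.0243), and so was KO DP (log2 change -1.15 ± 0.205 (SE), adjusted p = 0.00921). Each call was lost without any 1 of its libraries.

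Slc8a1, the sodium-calcium exchanger, had 11 falls and 4 rises among 27 regions in OE SP, 7 and 3 without WT SP replicate 2, and 6 and 3 with DESeq2. The region chr17:81339285-81339685 held 3.88 and 3.59 normalized reads in WT DP cells, 22.4 and 16.9 in WT SP cells, 3.36 and 3.56 in KO DP cells and 140.1 and 167 in OE SP cells. This was the largest rise of the set in OE SP (log2 change 2.69 ± 0.25 (SE), adjusted p = 1.21e-05). WT SP was above WT DP as well (log2 change 1.49 ± 0.25 (SE), adjusted p = 0.00297). The region chr17:81454041-81454441 held 20.4 and 24.2 normalized reads in WT DP cells, 18.3 and 17.8 in WT SP cells, 5.88 and 5.94 in KO DP cells and 18.2 and 14.4 in OE SP cells. KO DP was lower (log2 change -1.32 ± 0.26 (SE), adjusted p = 0.0146), a call lost without any 1 of the 4 libraries. Near Atp2a2, the calcium pump of the sarcoplasmic reticulum, the region chr5:122513743-122514143 held 132 and 144 normalized reads in WT DP cells, 62.1 and 61.5 in WT SP cells, 145 and 125 in KO DP cells and 29.2 and 36.8 in OE SP cells. The DP groups were higher than the SP groups (log2 change -1.096 ± 0.195 (SE), adjusted p = 0.0038; lost without WT DP replicate 2). Casq2, the calcium buffer of the reticulum, had 8 of 9 regions fall in OE SP. Of Casq2 regions 4 fell without WT SP replicate 1, 3 without WT SP replicate 2 and 2 with DESeq2, and 3 to 5 with other scalings. The single region of Pln, the inhibitor of that pump, was not called in any comparison.

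Among the channels, 20 of 47 regions fell and 7 rose in OE SP (42.6% fell). The split was 17 falls and 11 rises with median-of-ratios scaling, 14 and 12 with the 10000 highest regions, and 11 and 7 with DESeq2. Without WT SP replicate 2, 4 rose. Hcn4, the pacemaker current channel, had 48.5 and 44.9 normalized reads in WT DP cells, 120.1 and 115 in WT SP cells, 20.99 and 29.7 in KO DP cells and 267 and 429.6 in OE SP cells at chr9:58847053-58847453. KO DP was lowest, then WT DP, WT SP and OE SP, with no overlap between neighbours in this order. The step from WT DP to WT SP passed (log2 change 1.25 ± 0.24 (SE), adjusted p = 0.00584) but was lost without any 1 of its libraries. The step from WT SP to OE SP passed (log2 change 1.49 ± 0.24 (SE), adjusted p = 0.000357). The step to KO DP did not pass (log2 change -0.78 ± 0.24 (SE), adjusted p = 0.0959). The region chr9:58850890-58851290 held 56.3 and 44.9 normalized reads in WT DP cells, 58.01 and 62.5 in WT SP cells, 23.5 and 29.7 in KO DP cells and 142 and 199.7 in OE SP cells. OE SP was highest (log2 change 1.41 ± 0.23 (SE), adjusted p = 0.000364). Kcnq1, which carries the slow delayed rectifier current, had 17 falls and 5 rises among 39 regions in OE SP, 10 and 5 with DESeq2, 12 and 2 without WT SP replicate 2, and 15 and 8 without OE SP replicate 1. Its region chr7:143367225-143367625 held 27.2 and 38.6 normalized reads in WT DP cells, 59.03 and 52.5 in WT SP cells, 47.9 and 53.5 in KO DP cells and 3.65 and 5.25 in OE SP cells. Both OE SP libraries were nearly closed there (log2 change -2.69 ± 0.25 (SE), adjusted p = 1.07e-05). Its region chr7:143262249-143262649 held 32.03 and 27.8 normalized reads in WT DP cells, 68.2 and 52.5 in WT SP cells, 45.3 and 32.1 in KO DP cells and 6.57 and 7.88 in OE SP cells. WT SP was highest (log2 change 0.896 ± 0.25 (SE), adjusted p = 0.0338; lost without any 1 of its libraries). It fell from WT SP to OE SP (log2 change -2.41 ± 0.25 (SE), adjusted p = 2.17e-05). The region chr7:143428891-143429291 held 39.8 and 42.2 normalized reads in WT DP cells, 29.5 and 28.8 in WT SP cells, 16.8 and 11.9 in KO DP cells and 13.9 and 13.1 in OE SP cells. KO DP was below WT DP (log2 change -1.26 ± 0.24 (SE), adjusted p = 0.0137; lost without any 1 of its libraries).

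The natriuretic peptide genes Nppa and Nppb lie next to each other and mark working heart muscle, and their 6 regions gave 2 falls and 1 rise in OE SP, or 2 falls and 3 rises with median-of-ratios, quantile or 10000-region scaling and with edgeR, and no call in the other comparisons. The region 16.3 kb upstream of Nppb (chr4:147969399-147969799) held 213 and 228 normalized reads in WT DP cells, 147 and 146 in WT SP cells, 242 and 252 in KO DP cells and 18.2 and 45.98 in OE SP cells. The lowest values were those of OE SP (log2 change -2.13 ± 0.28 (SE), adjusted p = 9.79e-05). The region between the genes (chr4:147993390-147993790) held 26.2 and 28.7 normalized reads in WT DP cells, 43.8 and 52.5 in WT SP cells, 27.7 and 20.2 in KO DP cells and 109 and 126 in OE SP cells. OE SP was highest (log2 change 1.21 ± 0.22 (SE), adjusted p = 0.000882).

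Start-site regions, those within 1 kb of an annotated start, fell more often in OE SP at these genes than over the genome. Of 30 such regions, 21 fell (70.0%) and 1 rose, against 22.1% and 7.40% of all 16444 start-site regions tested. The ends of a gene span were not used where the promoter table listed a start. So the Tnni1 region starting at chr1:135782744, next to the span's start at 135783033, was not counted. It rose in OE SP and kept the call under all 14 alternatives. With the 5 gene-end regions of Nexn, Tcap, Atp2a2 and Kcnq1, whose starts were not in the promoter table, 23 of 35 fell and 2 rose, between 17 and 28 without 1 library and 15 with DESeq2. Regions inside these genes fell in 48.5% of 272 cases and regions outside them in 48.5% of 103, against 32.6% and 32.0% of all such regions. In WT SP against WT DP 6 of the 30 rose and 0 fell (3.61% and 1.97% of all start-site regions). In KO DP 0 rose and 1 fell (0.815% and 2.71% of all start-site regions). None of the 30 rose in WT SP without any 1 of its 4 libraries or with DESeq2, and 4 rose and 3 fell when rescaled on the 10000 highest regions. Separate fits gave 14 rises and 4 falls.

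The Tnnt2 promoter printed above overlaps a region (chr1:135835947-135836347) with 97.1 and 96.1 normalized reads in WT DP cells, 173 and 175 in WT SP cells, 158 and 178 in KO DP cells and 12.4 and 63.1 in OE SP cells. OE SP fell below the other groups in both libraries, which were far apart (log2 change -2.38 ± 0.44 (SE), adjusted p = 0.000827). The Popdc2 start region (chr16:38361880-38362280) held 192 and 216 normalized reads in WT DP cells, 293 and 354 in WT SP cells, 189 and 193 in KO DP cells and 32.1 and 124 in OE SP cells. Here too OE SP lay lowest (log2 change -2.24 ± 0.401 (SE), adjusted p = 0.000698). The Tnnc1 start region (chr14:31208064-31208464) held 63.1 and 63.8 normalized reads in WT DP cells, 116 and 143 in WT SP cells, 89.8 and 68.9 in KO DP cells and 26.99 and 45.98 in OE SP cells. It rose in WT SP (log2 change 0.97 ± 0.25 (SE), adjusted p = 0.0224; lost without any 1 of its libraries). It fell in OE SP (log2 change -1.73 ± 0.25 (SE), adjusted p = 0.000157). The Actc1 start region (chr2:114052657-114053057) held 102 and 111 normalized reads in WT DP cells, 70.2 and 47.6 in WT SP cells, 151 and 147 in KO DP cells and 14.6 and 30.2 in OE SP cells. The DP groups were higher than the SP groups, and the fall in OE SP passed (log2 change -1.26 ± 0.27 (SE), adjusted p = 0.00246). The Myl7 start region (chr11:5898627-5899027) held 99.01 and 97.9 normalized reads in WT DP cells, 72.3 and 69.4 in WT SP cells, 83.1 and 74.9 in KO DP cells and 19.7 and 35.5 in OE SP cells. Both OE SP libraries were below the other 6 (log2 change -1.26 ± 0.24 (SE), adjusted p = 0.001).

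The start regions of Myh6, the alpha myosin heavy chain, of Myh7, of Tnni3, the adult cardiac troponin I, and of Slc8a1 and Nppa fell in OE SP by 1.10 to 1.39 on the log2 scale. The Myh6 start (chr14:54966483-54966883) held 34.95 and 39.5 normalized reads in WT DP cells, 40.7 and 39.6 in WT SP cells, 33.6 and 42.8 in KO DP cells and 13.1 and 17.1 in OE SP cells. The Myh7 start (chr14:54994674-54995074) held 53.4 and 58.4 normalized reads in WT DP cells, 114 and 109 in WT SP cells, 49.5 and 43.97 in KO DP cells and 38.7 and 63.1 in OE SP cells. The OE SP libraries were below the other 6 at Myh6, while at Myh7 replicate 2 lay above both DP groups. The Tnni3 start (chr7:4522248-4522648) held 45.6 and 34.1 normalized reads in WT DP cells, 57.00 and 43.6 in WT SP cells, 53.7 and 67.7 in KO DP cells and 15.3 and 21.02 in OE SP cells, with OE SP lowest. At Nppa (chr4:148000195-148000595) the values were 30.1 and 33.2 normalized reads in WT DP cells, 51.9 and 58.5 in WT SP cells, 51.2 and 55.9 in KO DP cells and 16.1 and 21.02 in OE SP cells. OE SP was lowest (log2 change -1.36 ± 0.22 (SE), adjusted p = 0.00038), and neither WT SP nor KO DP passed against WT DP (adjusted p = 0.0504 and 0.117). At Slc8a1 (chr17:81738219-81738619), the start with the lowest level, the values were 18.4 and 20.7 normalized reads in WT DP cells, 24.4 and 20.8 in WT SP cells, 21.8 and 17.8 in KO DP cells and 5.84 and 5.25 in OE SP cells. A distal start of Cacna1c that is as near to the gene Dcp1b (chr6:119196398-119196798) held 241 and 244 normalized reads in WT DP cells, 258 and 278 in WT SP cells, 314 and 301 in KO DP cells and 10.2 and 70.95 in OE SP cells. OE SP was lowest there as well (log2 change -3.002 ± 0.497 (SE), adjusted p = 0.000422).

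By contrast the Myl4 start, whose promoter is also printed above, held 747 and 852 normalized reads in WT DP cells, 1046 and 920.0 in WT SP cells, 653 and 655 in KO DP cells and 721 and 904 in OE SP cells (chr11:104550441-104550841). The OE SP values overlapped those of WT DP and lay above those of KO DP, and no comparison passed (log2 change -0.28 ± 0.15 (SE), adjusted p = 0.155 in OE SP). At Actn2 (chr13:12340634-12341034) the start held 527 and 513 normalized reads in WT DP cells, 679.9 and 617 in WT SP cells, 526 and 478 in KO DP cells and 425 and 519 in OE SP cells. It fell in OE SP (log2 change -0.46 ± 0.15 (SE), adjusted p = 0.0255), with OE SP replicate 2 within the range of the DP groups. The call was lost with median-of-ratios or 10000-region scaling, in separate fits, with edgeR or DESeq2 and without either WT SP library. The Tpm1 start (chr9:67049189-67049589) held 434 and 409.6 normalized reads in WT DP cells, 640.2 and 646 in WT SP cells, 584 and 594 in KO DP cells and 319 and 367 in OE SP cells. Both OE SP libraries were lowest, and the fall of 0.90 on the log2 scale was the smallest called at the gene. The Ryr2 start (chr13:12106756-12107156) held 382 and 361 normalized reads in WT DP cells, 499.7 and 403 in WT SP cells, 309 and 273 in KO DP cells and 304 and 309 in OE SP cells. OE SP lay below both wild-type groups and within the range of KO DP, and its fall, by 0.54, was again the smallest called at the gene. The Ryr2 call was lost with each other scaling, in separate fits, with edgeR or DESeq2 and without WT SP replicate 1. The start of Hopx (chr5:77095054-77095454) was not called in OE SP (log2 change -0.25 ± 0.18 (SE), adjusted p = 0.269), nor were those of Nppb and Des nearest to the annotated start. The one rise was at Myl3 (chr9:110764292-110764692), with 18.4 and 11.7 normalized reads in WT DP cells, 20.4 and 25.8 in WT SP cells, 11.8 and 11.9 in KO DP cells and 40.9 and 38.1 in OE SP cells (log2 change 0.67 ± 0.26 (SE), adjusted p = 0.0496), a call lost with a pseudocount of 1, with DESeq2 and without any 1 of its libraries. At Tcap, the titin cap of the Z disc, the gene-end region chr11:98384380-98384780 held 26.2 and 17.96 normalized reads in WT DP cells, 40.7 and 51.5 in WT SP cells, 28.6 and 20.2 in KO DP cells and 153 and 222 in OE SP cells. OE SP was highest (log2 change 1.895 ± 0.26 (SE), adjusted p = 0.000131).

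**Figure D4:**
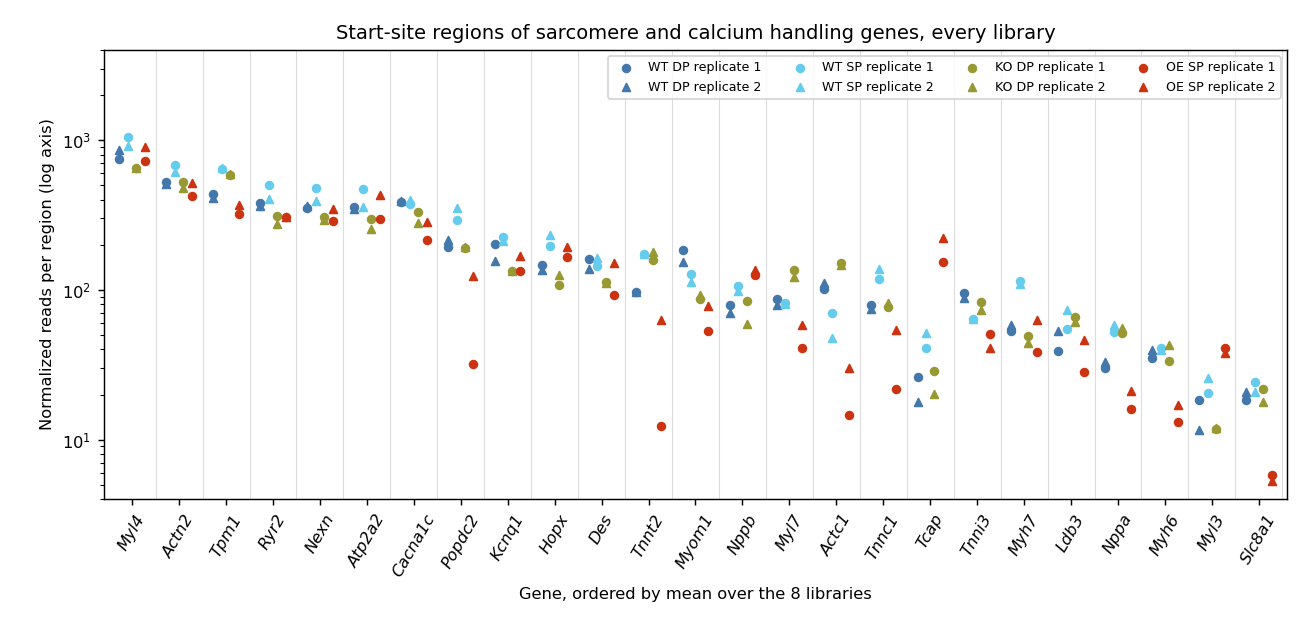
Normalized reads (log y axis) of both libraries of each group at the start-site or gene-end region of highest mean of 25 genes, ordered by mean over the 8 libraries. OE SP (red) is lowest in both libraries at genes such as Tnnt2, Popdc2, Actc1 and Slc8a1 and highest at Tcap, while at Myl4 its libraries lie among the others.

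The OE SP libraries differed in level, in regions that fell and in regions that rose. The median log2 ratio of replicate 2 to replicate 1 was 0.33 in both, and replicate 2 was higher in 157 of the 205 falls and 35 of the 48 rises. Over the whole table, the normalized reads summed to 13727500 in replicate 1 and 17243700 in replicate 2. They were 16090300 and 15954200 in WT DP cells, 17689600 and 17220600 in WT SP cells, and 15830200 and 14829300 in KO DP cells. Of the 205 regions that fell, replicate 2 held at least 2-fold more than replicate 1 in 55 (26.8%) and the reverse was so in 6 (2.93%), and over all 53530 falls of the table the shares were 21.8% and 6.17%. Summed over the 411 regions, the normalized reads were 35350 and 35210 in WT DP cells, 39400 and 39300 in WT SP cells, 36610 and 34970 in KO DP cells, and 21800 and 29700 in OE SP cells. Both OE SP sums were the lowest, and replicate 2 lay nearer to the other groups. Over the whole table replicate 1 was the lowest library too, while replicate 2 lay above both DP groups.

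**Figure D5:**
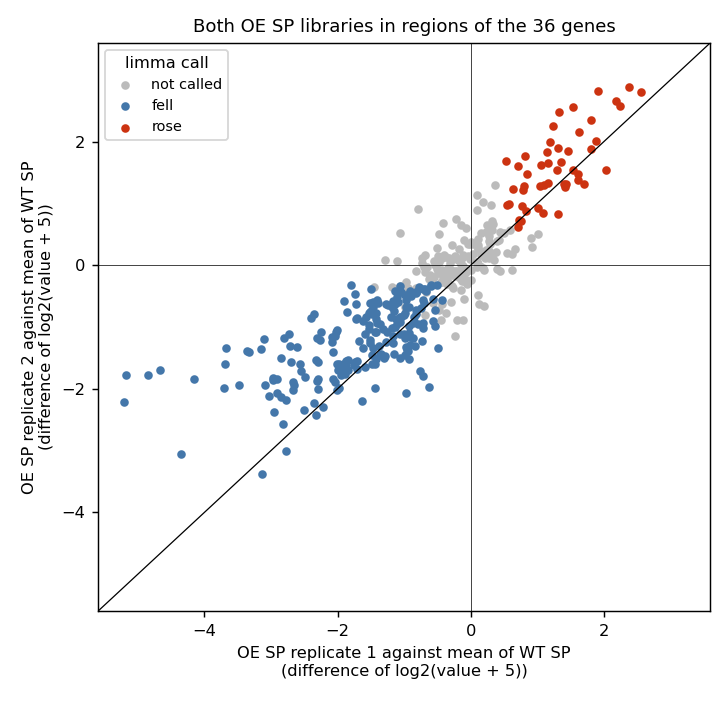
Each point is one region of the 36 genes: the difference of log2(value + 5) from the mean of WT SP in OE SP replicate 1 (x axis) and replicate 2 (y axis), with the diagonal of equal change, colored by limma call. Falls mostly lie above the diagonal, since replicate 2 was higher in 157 of the 205.

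Markers of cell fates went different ways in OE SP, list by list. Summed over regions at gene ends, the 8 endothelial markers (13 regions) ran from 895.5 to 947 normalized reads in WT DP, 1233 to 1256 in WT SP, 677 to 714.5 in KO DP and 2935 to 4495 in OE SP. The blood markers, with such a region at 4 of 7 genes and none at Gata1, Ikzf1 and Klf1, ran from 753 to 772 in WT DP, 1033 to 1085 in WT SP, 589.5 to 615 in KO DP and 1576 to 2140 in OE SP. The 7 cardiac precursor markers ran from 3622 to 3648 in WT DP, 3881 to 4228 in WT SP, 3340 to 3631 in KO DP and 2493 to 3261 in OE SP. The 5 smooth muscle markers ran from 1575 to 1598, 1801 to 1840, 1790 to 1858 and 1393 to 1841 in the same order. The pluripotent markers, with such a region at 4 of 5 genes, ran from 484 to 530, 460 to 463, 355 to 382 and 437 to 487. The skeletal muscle markers, also at 4 of 5 genes, ran from 708 to 719, 728 to 762, 572 to 611 and 659 to 661. The smooth muscle and pluripotent sums of OE SP overlapped those of WT SP, and the skeletal muscle sum was lower. The endothelial sum was thus highest in OE SP, and the cardiac precursor sum lowest. Counted over all regions around these genes in OE SP against WT SP, 60 of 165 endothelial regions rose and 29 fell. Around the blood genes the balance went the other way, with 41 of 101 regions falling (40.6%) and 24 rising, and a median of -0.36. Around the cardiac precursor genes 90 of 143 fell and 8 rose. The part of a change in the mix of cells in the results at the sarcomere genes was not tested.

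Related genes moved to different extents in OE SP. Around 13 cardiac transcription factor genes, 171 of 323 regions fell (52.9%) and 33 rose, a share of falls close to that of the sarcomere and calcium genes. Around 18 other calcium handling genes, 117 of 319 fell (36.7%) and 52 rose. Around 18 skeletal muscle sarcomere genes, 29 of 93 fell (31.2%) and 14 rose, near the 31.9% of all regions. The differences between these lists were not tested.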

How the data were processed

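The deposited table gives 1 signal value per region and library. The file's name, not a stated method, calls these normalized counts, and no source used here gives the authors' scaling. The tools named in the submitters' processing notes are DiffBind 3.14.1, Bowtie2 and MACS2, with build mm10 and no role stated. Per the labels' protocols, 50000 live cells per library went through a modified Omni-ATAC procedure with paired reads of 75 bp. Regions were 401 to 1126 bp wide. A shift of reads for the Tn5 cut, and peak calling on pooled or single libraries, are not stated. Values were whole multiples of a step per library (tolerance 0.01 reads), which recovers whole reads. In WT SP replicate 2 this is weak evidence, as its step of 0.991 is close to 1. Per library, a median of 27 to 42 reads fell in a region, without molecular identifiers.

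Here limma 3.58.1 in R 4.3.3 was fitted to log2(value + 5) with 4 group means and an empirical Bayes trend (residual df 4, prior df 8.15), over 167573 regions (99.2%), those whose mean reached 10. One region near Ttn was below that mean. P-values are two-sided, adjusted by Benjamini-Hochberg over all regions tested, and called below 0.05. The fit was tested on simulated data. Gene spans came from a RefSeq table of GRCm38.p6, and 5 regions were nearest to 2 genes at once. The 36 genes, the lists and the rules were chosen with earlier results of these data known. Regions are named by rule: the 5 largest called rises and falls per comparison, up to 3 genes per role by lowest adjusted p, and the start-site regions. Others that were singled out (the second regions of Tnni1, Tpm1, Ryr2 and Cacna1c in a comparison, and Tcap) come from the same lists in another comparison. Alternatives were another pseudocount, filter, scaling or distance, separate fits, edgeR 4.0.16 and DESeq2 1.42.0 on recovered reads, a replicate block and leaving out each library. Samples with the same replicate number did not deviate together.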

Additional observations from a re-analysis of the deposited data

How the results depend on the processing

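The count of falls in OE SP kept its excess over rises, and its share above that of all regions, under every alternative run, and the other counts were less stable. With separate fits of the compared groups, WT SP had 106 rises and 60 falls, KO DP 58 and 56, and OE SP 45 and 171. In WT SP these are 25.9% and 14.6%, beside 22.4% and 15.5% of all regions. In KO DP they are 14.1% and 13.7%, beside 8.89% and 13.1%. With DESeq2, WT SP had 18 rises (4.39%, beside 2.78% of all regions) and KO DP 3 falls (0.732%, beside 0.819%). DESeq2 gave OE SP 119 falls (29.0%, beside 17.2%), of which 15 at start-site or gene-end regions. With edgeR, WT SP had 48 falls (11.7%, beside 11.8% of all regions) and KO DP 28 rises (6.83%, beside 3.62%). With a mean of at least 30, which leaves fewer regions, KO DP had 3 rises and 7 falls (1.18% and 2.75%, beside 1.46% and 2.62%). OE SP then had 19 rises (7.45%, beside 12.2%). With median-of-ratios scaling, WT SP had 39 falls and KO DP 17 rises. With scaling on the 10000 highest regions, WT SP had 51 falls, KO DP 23 rises and OE SP 74 rises. With quantile normalization KO DP had 24 rises. The cause of these shifts was not tested. Leaving out 1 library gave 6 to 10 rises and 7 to 9 falls in WT SP, 1 to 2 rises and 1 to 2 falls in KO DP, 35 to 59 rises and 153 to 227 falls in OE SP, and 17 to 28 start-site falls. A group left with 1 library is assumed to vary like the others. With the replicate block, WT SP had 37 rises and 25 falls, KO DP 12 and 11, and OE SP 47 and 199, and same-numbered libraries correlated between -0.00382 and 0.056 in their deviations, so the numbers do not pair them. The start-site, role and gene counts under alternatives were added after the data were seen. Over all calls at these genes, 115 of 205 falls and 30 of 48 rises in OE SP held under every alternative. In WT SP 5 of 37 rises and 5 of 25 falls held, and in KO DP 1 of 10 rises and 1 of 12 falls. Regions named for the size or adjusted p of their change were picked as the strongest, so they do not stand for the rest. Of these, 26 of 26 called in OE SP held, 10 of 19 in WT SP and 2 of 13 in KO DP, and none reversed. Of the start-site regions, 15 of 21 falls in OE SP held, and 0 of 1 rise there, 0 of 6 rises in WT SP and 0 of 1 fall in KO DP. At a median of 27 to 42 reads per region, small changes are not detectable.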
